A study of Rattus norvegicus with 8 samples.

Results

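Albumin, transthyretin, fetuin A and 6 other genes for proteins that the liver is known to secrete into plasma (Alb, Ttr, Ahsg, Apoa1, Apoa2, Apob, Rbp4, Serpina1 and C8a) were followed in lung and blood of a rat lung cancer model. A gene was read from the probes whose RefSeq transcript belongs to it, and 8 of the 9 genes had such a probe, out of 13888 genes named on the array. No probe was matched to Apoa1, which was not analysed here. Each of the 8 genes had 1 probe in 1 spot, with no spot marked as an outlier on any array. The genes were chosen by their lower signal on the tumor than on the normal lung arrays, known from an earlier look at these arrays, so their lung differences, and any count of them past a threshold, describe that choice and test nothing.

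All 8 samples were from male F344 rats at week 95. The lung samples were 3 tumors and their 3 matched normal tissues, all from rats treated with NNK, a nitrosamine of tobacco smoke that is carcinogenic in rat lung, so that the normal lung was exposed as well. The study's methods give the tumors as moderately differentiated adenocarcinoma. The blood samples were clots of whole blood, 1 from a control rat and 1 from a rat of the NNK treatment group. The age of the rats and the vehicle of the control group were not given in the sources used here, and 1 label field of the NNK blood sample names lung tumor 3, whereas the other fields name a blood clot, by which it was placed.

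In the adult, hepatocytes make most plasma protein. Albumin carries fatty acids and holds the osmotic pressure of blood, transthyretin carries thyroid hormone and binds the retinol carrier Rbp4, and the apolipoproteins build the lipoprotein particles that move lipids between organs. Hepatocyte genes of this kind are known to share control by factors that include HNF4, FOXA and C/EBP, which are active in the embryonic gut endoderm from which both liver and lung arise. Type 2 alveolar cells of the lung use FOXA and C/EBP factors too.

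Promoter windows of Alb, Ahsg and C8a are shown because, of the 6 promoters searched, theirs held TGTTTGC, a motif known from liver promoters, which in Alb and C8a lies upstream of the window shown. They are RefSeq sequences of the assembly GRCr8, 90 bases each that begin 120 and end 31 bases before the start of the gene, on the gene's own strand, which is the minus strand for each. Capitals mark GTTAAT, a motif known from liver promoters, the FOXA motif TGTTTGC or the C/EBP motif TTNNGNAA on either strand.
Alb, chr14:17907010-17907099: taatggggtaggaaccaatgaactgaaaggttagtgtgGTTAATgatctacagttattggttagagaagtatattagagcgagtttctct
Ahsg, chr11:91632614-91632703: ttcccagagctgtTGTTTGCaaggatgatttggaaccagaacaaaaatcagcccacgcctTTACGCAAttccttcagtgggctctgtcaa
C8a, chr5:124866662-124866751: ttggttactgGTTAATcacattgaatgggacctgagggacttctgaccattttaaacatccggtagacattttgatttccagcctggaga
In the Alb window the GTTAAT motif spans bases -82 to -77, and in the C8a window bases -110 to -105. The Ahsg window holds TGTTTGC at bases -107 to -101 and a C/EBP motif, which reads as one on both strands, at bases -60 to -53.

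Promoters of 6 of the 9 genes (Alb, Ttr, Ahsg, Rbp4, Serpina1 and C8a) were in the sequence table, and the 250 bases before the start were searched on both strands. GTTAAT was in 2 of the 6, Alb and C8a, and in 6.46% of the 27457 promoters of the table. TGTTTGC was in 3 of the 6, Alb, Ahsg and C8a, and in 4.09% of all promoters. TTNNGNAA was in 5 of the 6 and in 36.8% of all. The HNF4 core CAAAGT was in Ahsg alone of the 6 and in 12.8% of all, and the TATA box TATAAA, searched on the gene strand, was in Rbp4 alone and in 8.38% of all. None of the 6 held the HNF4 site CAAAGTCCA, which contains the core (0.331%), or the FOXA motif TGTTTAC (3.25%). A match of letters is a description of the window and shows no binding.

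The array was a 1-colour Agilent oligonucleotide array with 24684 probes, and levels are log2 processed signals (spot brightness after background subtraction), quantile-normalized within the 6 lung arrays. The median signal of the lung arrays was 24.98 to 35.58, and 60.3 to 67.9% of their probes were well above background, against 53.3 and 53.9% on the blood arrays. The mean squared difference between any pair of normal lung arrays was 0.467 to 0.787 times that expected from the spread between spots of a probe, and between tumor arrays 2 and 3 it was 0.467 times. These arrays therefore differed by less than the measuring noise and were counted as 1 sample in each mean ± SD, while tumor array 1 differed from the other tumor arrays 3.03 and 3.36 times as much as noise, and normal from tumor arrays 8.35 to 12.8 times. Arrays with the same scan date were taken to share a slide, since the sample titles name none. On this reading the normal lung arrays and tumor array 1 were on 1 slide, and tumor arrays 2 and 3 on another. The blood arrays were on a slide of their own. The labels did not say that the normal samples came from separate animals, and p-values below measure the spread between arrays, which may be technical.

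All 8 genes were lower in the lung tumors than in normal lung, as they were picked to be. The thresholds used for the lists below were a fold change of 2 and a Benjamini-Hochberg adjusted p of 0.05 in limma over the 12471 probes tested, which called 15.5% of the probes lower and 13.5% higher. Of the 8 genes, 8 lay past the lower threshold and 0 past the higher one, a count that the choice of genes fixes. On none of the 8 did the tumor and normal arrays overlap, and all tumor arrays lay below all normal arrays for 34.8% of all probes tested. The median difference of the 8 was -3.85 on the log2 scale, against 0.065 over all probes tested, and -3.13 with the 3 genes that had only a bound set at it. In whole-tissue RNA, fewer cells of a type and less RNA per cell cannot be told apart.

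**Figure D1:**
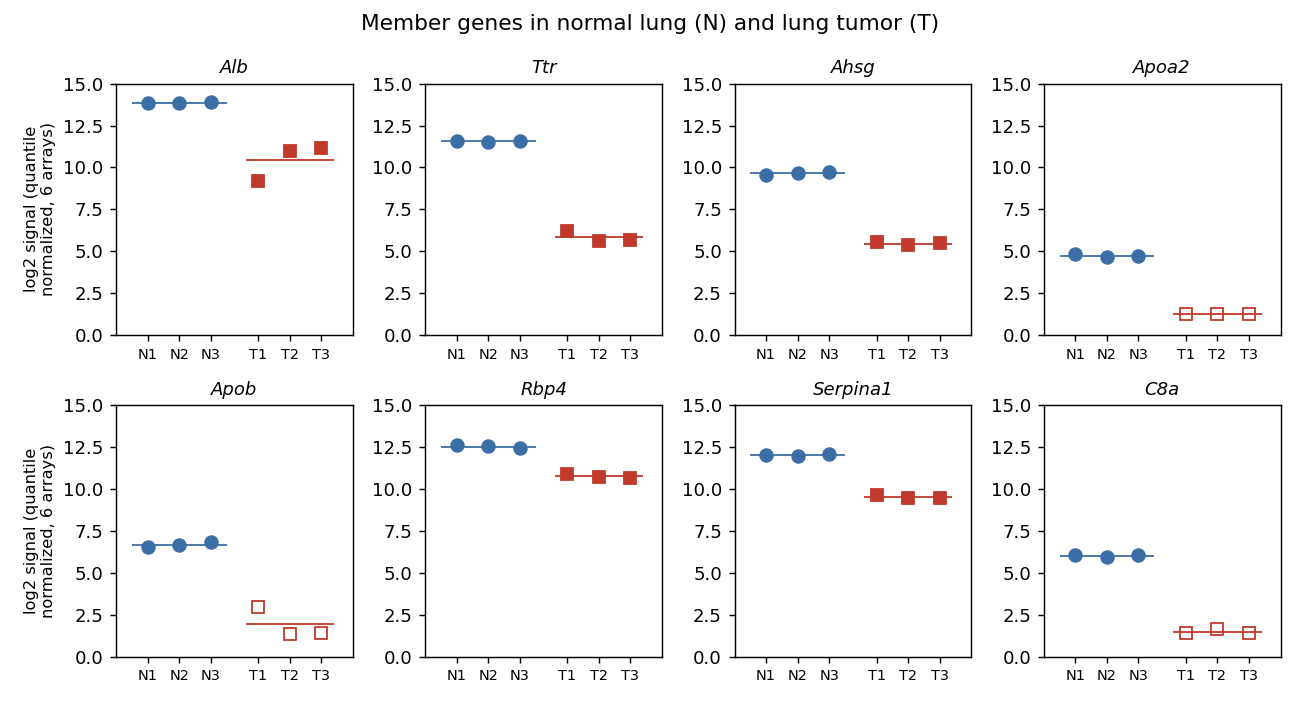
Level of each of the 8 genes (log2 signal, quantile-normalized over the 6 lung arrays) on the normal lung arrays N1 to N3 (blue circles) and the tumor arrays T1 to T3 (red squares), with lines at the group means and open symbols where the spot was not well above background. The tumor arrays lie below the normal arrays in each panel, and Apoa2, Apob and C8a have open symbols on all 3 tumor arrays.

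Among the carriers, Alb (NM_134326), the main osmotic and fatty acid carrying protein of plasma, had log2 levels of 13.84, 13.85 and 13.89 on normal lung arrays 1 to 3 and of 9.21, 10.96 and 11.16 on tumor arrays 1 to 3. The normal arrays were nearly alike, and the tumor arrays spread over 1.95. The group means differed 10.7-fold. Tumor 1, which shared the slide with normal lung, was 25.0-fold below normal lung and tumors 2 and 3 were 6.96-fold below it, so that tumor 1 lay 3.60-fold under the other tumors. With tumors 2 and 3 counted as 1 sample, the tumor level was 10.14 ± 1.31 (SD, n = 2).

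Ttr (NM_012681), the thyroid hormone carrier, had the largest difference of the genes measured above background in both groups. Its levels were 11.56, 11.51 and 11.60 on the normal arrays and 6.20, 5.64 and 5.66 on the tumor arrays, a difference of -5.73 or 53.0-fold. Tumor 1 was 41.1-fold and tumors 2 and 3 were 60.2-fold below normal lung. Tumor 1 was the lowest tumor array for Alb and the highest for Ttr. The tumor level was 5.92 ± 0.39 (SD, n = 2).

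Rbp4 (NM_013162), which carries retinol from the liver and travels bound to transthyretin, was lower by less than the other carriers. Its levels were 12.61, 12.56 and 12.47 in normal lung and 10.91, 10.75 and 10.68 in tumor, a difference in means of -1.77. It stayed well above background on all 6 lung arrays, and its tumor arrays lay within 0.23 of each other.

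Of the apolipoproteins, Apob (NM_019287), the structural protein of LDL, had levels of 6.54, 6.67 and 6.88 in normal lung and of 2.99, 1.36 and 1.44 in tumor. No tumor array was well above background for it, so the difference is a bound of at least 11.6-fold, taken against the lowest signal above background on each tumor array. With normexp background correction the difference was -1.31, where this bound does not hold. Tumor 1 read 3.02-fold above tumors 2 and 3, but all of these values were background. Apoa2 (NM_013112), a protein of HDL, had levels of 4.82, 4.67 and 4.74 in normal lung and of 1.29, 1.24 and 1.23 in tumor. It was also not well above background on any tumor array, and its bound was at least 2.99-fold. That bound does not hold with normexp either, where the difference was -0.57. The Apoa2 signal was 23.8 to 26.3 on the normal arrays, so its level there was close to background as well.

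Ahsg (NM_012898), or fetuin A, which binds calcium phosphate and hinders mineral deposition in soft tissue, had levels of 9.58, 9.65 and 9.75 in normal lung and of 5.55, 5.36 and 5.48 in tumor. The means differed 18.4-fold, and the tumor arrays lay within 0.19 of each other, with a tumor level of 5.48 ± 0.093 (SD, n = 2). Serpina1 (NM_022519), alpha-1-antitrypsin, which inhibits neutrophil elastase and protects lung tissue, had levels of 12.03, 11.96 and 12.11 in normal lung and of 9.67, 9.46 and 9.46 in tumor. Its mean was 5.68-fold lower in tumor. Both genes stayed well above background on each tumor array.

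C8a (NM_001106670), the alpha chain of complement component C8 in the membrane attack complex, had levels of 6.07, 5.93 and 6.06 in normal lung and of 1.39, 1.64 and 1.40 in tumor. It was well above background on the 3 normal arrays and on no tumor array, which gives a bound of at least 7.24-fold. With normexp the difference was -0.97, so the C8a bound does not hold there.

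**Figure D2:**
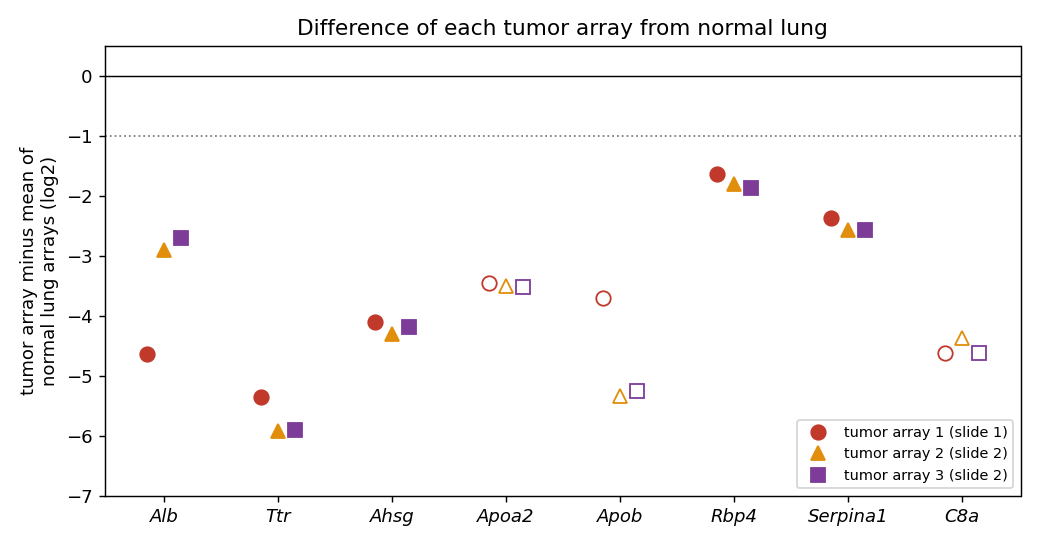
Difference of each tumor array from the mean of the normal lung arrays (log2), with 1 column of 3 symbols per gene, tumor 1 (same slide as normal lung) as circles, tumor 2 as triangles, tumor 3 as squares, open where not well above background, and a dotted line at a 2-fold difference. Tumors 2 and 3 lie close together for each gene, and tumor 1 lies apart for Alb (-4.64 against -2.80) and Ttr (-5.36 against -5.91), and for Apob, where all 3 tumor values are background.

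On the slide that held both groups, the differences (tumor 1 minus normal lung) were -4.64 for Alb, -5.36 for Ttr, -4.11 for Ahsg, -1.64 for Rbp4 and -2.37 for Serpina1. Apoa2, Apob and C8a were at background on tumor 1 and have no exact difference there.

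The wider set of liver-secreted genes moved in both directions. Of 53 such genes listed besides the 8, 41 had a probe and 28 were tested, of which 15 fell in tumor, 3 rose and 10 passed neither threshold, against 15.5% lower and 13.5% higher of all probes tested. Another 11 were not well above background on enough arrays, and 2 were lost to outlier marks. With all 6 lung arrays required to be well above background, 18 were tested. Of these 9 fell and 3 rose, against 1651 lower and 1190 higher of 10573 probes. The median difference was -1.02, against 0.065 over all probes, while the summed signal, most of it from Fetub, was 100002 to 109701 in normal lung and 193597 to 217996 in tumor. This list, like those below, was written with earlier results of the arrays known.

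Among the largest fitted falls were those of Apoh and Serpina3c, though with background in tumor they cannot be ranked. Apoh, or beta-2-glycoprotein I, which binds phospholipids, had levels of 9.87, 9.87 and 9.92 in normal lung and of 4.05, 3.04 and 2.55 in tumor. Only 1 of 3 tumor arrays was well above background for it, so the fitted difference of -6.67 is not exact. Serpina3c belongs to a serpin family of close copies that a probe may not tell apart, and was at least 58.7-fold lower in tumor, where no array was well above background. Hrg, the plasma histidine-rich glycoprotein, Serpinc1, antithrombin, and Gc, the vitamin D carrier, were chosen after their values were seen. Hrg was at least 46.9-fold lower, Serpinc1 fell by 5.46 on the log2 scale and Gc fell by 3.94. Apoh, Serpina3c and Hrg were not tested when a probe had to be well above background on all 6 lung arrays.

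Rises were called in Mbl1, C9 and Fetub. C6 of the complement system, not tested because of outlier marks, had means of 10.60 in normal lung and 12.25 in tumor. With marked spots kept, 4 genes of the list were called higher and 15 lower. Mbl1, a mannose-binding lectin of the complement system, had levels of 10.27 to 10.32 in normal lung and of 12.64, 13.30 and 13.26 in tumor, and the fit, which left out the marked spot of tumor 3, gave a difference of 2.66 ± 0.21 (SE; limma adjusted p = 0.000556). The call of Mbl1 was lost in a paired test, and without tumor 1 or tumor 2 it could not be tested. C9, which forms the pore of the membrane attack complex that C8a helps to start, had levels of 8.99, 9.09 and 9.08 in normal lung and of 10.95, 10.66 and 10.51 in tumor (limma adjusted p = 0.000157), and its call was lost with near-identical arrays counted once. Fetub, fetuin B, a relative of Ahsg that inhibits egg-coat proteases, had levels of 15.65 to 15.70 in normal lung and of 17.23 to 17.37 in tumor (limma adjusted p = 1.31e-05). On the same arrays, therefore, Ahsg was lower and Fetub higher. Afp, the fetal albumin relative, had mean levels of 6.43 and 5.75, a difference of -0.68 that did not reach 2-fold (limma adjusted p = 0.0309).

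Genes of hepatocyte metabolism outside the secretory pathway fell as well. Of 34 hepatocyte enzyme and transporter genes, all with a probe, 26 were tested, of which 17 fell and 1 rose, against the same 15.5% and 13.5%. Under the filter on all 6 lung arrays 18 were tested, of which 10 fell and 1 rose, against 1651 lower and 1190 higher of 10573 probes. Their median difference was -2.42, or -1.77 with the genes that had only a bound set at it. Tdo2, which starts the breakdown of tryptophan, fell by 5.24 on the log2 scale (limma adjusted p = 3.93e-06) and was well above background on all 6 arrays. The gene that rose was Ass1 of the urea cycle, from 7.53 to 7.74 in normal lung to 9.51 to 9.85 in tumor (limma adjusted p = 5.14e-05). Cyp2e1, a P450 that is strong in liver and was chosen after its values were seen, went from a mean of 15.76 to 10.96.

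**Figure D3:**
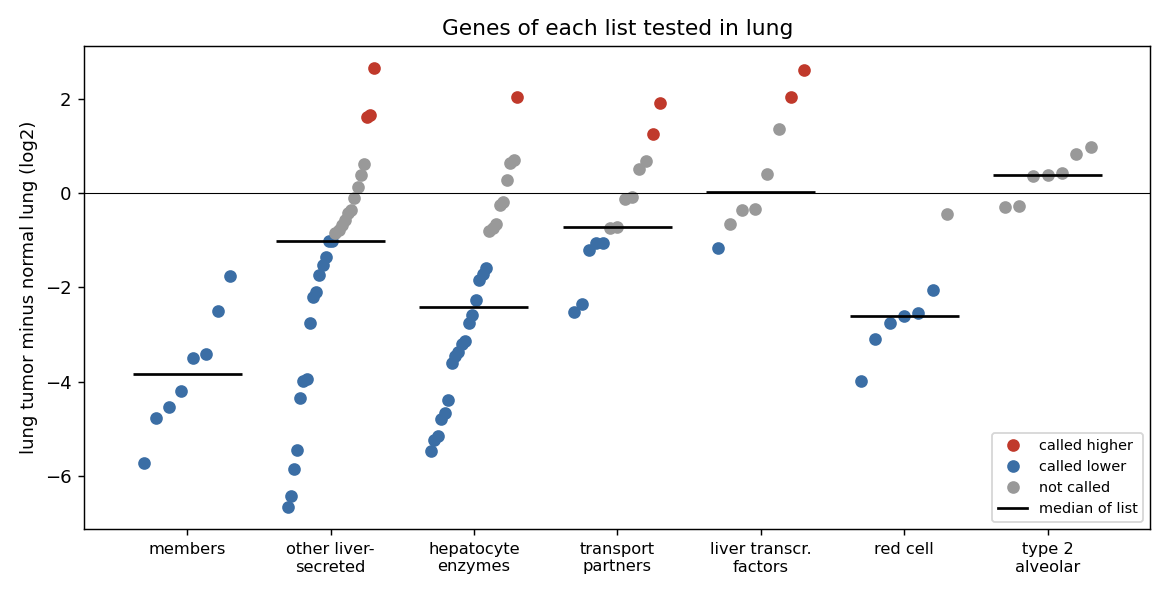
Fitted difference, tumor minus normal lung (log2), of each tested gene (dots) in the 8 genes and 6 lists, coloured by the call (2-fold and limma adjusted p of 0.05), with a bar at each list's median. Genes at background in a group are drawn at their fitted value, which is no bound. The 8 genes run from -5.73 to -1.77, the liver-secreted list spans both directions, and the type 2 alveolar list centres at 0.38.

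Markers that define hepatocytes gave a mixed picture. Of 6 such genes 4 were tested, of which 2 fell, Otc (-1.58) and Slc10a1 (-1.71), and 2 did not pass, Cps1 among them (-0.19, limma adjusted p = 0.278), against 15.5% lower of all probes tested. The call of Slc10a1 was lost with normexp. Cps1, one of the most abundant mRNAs of hepatocytes, was well above background on 1 of 3 normal arrays and 3 of 3 tumor arrays, with mean levels of 3.84 and 3.65. On each lung array Tat and Hpd were at background. The summed signal of the 6 was 7984 to 9372 in normal lung and 8632 to 10864 in tumor, while that of all 34 enzyme and transporter genes was 79661 to 86375 in normal lung and 22360 to 25118 in tumor.

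Of 14 liver transcription factors 8 were tested, of which 2 rose and 1 fell, against 13.5% and 15.5% of all probes tested, and the median difference was 0.034. All 3 calls were lost with normexp. Foxa3 had levels of 1.22, 1.22 and 3.13 in normal lung, none well above background, and of 4.21 to 4.62 in tumor. Its rise of at least 1.54-fold is a bound under the 2-fold threshold, so its call rests on background values. That call was also lost in a paired test and with the slide as a block. Cebpa, also below background in normal lung, rose at least 2.16-fold. Neither Foxa3 nor Cebpa was tested when a probe had to be well above background on all 6 lung arrays. Foxa2 and Cebpb of the same families were brighter. Foxa2, not tested because of outlier marks, had means of 14.07 in normal lung and 14.38 in tumor. Cebpb had means of 17.79 and 17.14, a difference of -0.64 that did not reach 2-fold (limma adjusted p = 0.000443). Foxa1 fell by 1.16 (limma adjusted p = 0.0042), a call that was lost under 6 of the alternative settings. Hnf4a had means of 4.67 and 5.08, a difference of 0.41 that did not pass (limma adjusted p = 0.104).

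Receptors, carriers and enzymes that handle these proteins did not share one direction. Of 23 such genes 19 had a probe and 13 were tested, of which 5 fell and 2 rose, with a median of -0.72, against 15.5% lower and 13.5% higher of all probes tested. Gpihbp1, which holds lipoprotein lipase on capillary endothelium, fell by 2.53 (limma adjusted p = 4.16e-05), and Lipc, hepatic lipase, by 2.36 (limma adjusted p = 0.000629), a call lost with normexp and with near-identical arrays counted once. Rbp2, a cellular retinol-binding protein, rose from 10.14 to 10.21 in normal lung to 11.10, 11.51 and 11.64 in tumor (limma adjusted p = 0.000983), a call lost in a paired test, with the slide as a block and with near-identical arrays counted once. When any 1 of the normal arrays was left out, 1 of the 2 rises in the list lost its call. Stra6, the Rbp4 receptor, had means of 7.12 and 7.80, a difference of 0.68 that did not reach 2-fold (limma adjusted p = 0.000523). Mttp, which loads lipid onto Apob, was well above background on 1 of 3 normal arrays and on no tumor array and was not tested.

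Markers of other cells moved beside these genes, and their counts stand against 15.5% lower and 13.5% higher of all probes tested. Of 7 red cell marker genes tested 6 fell in tumor, with a median of -2.61 and a summed signal of 37281 to 42242 in normal lung and 4866 to 4938 in tumor. Of 3 platelet genes tested 3 fell, 2 of them only against a bound, of which Gp9 lost its call with normexp, in a paired test and with near-identical arrays counted once, and Ppbp with normexp, while Pf4, not tested because of outlier marks, had means of 11.99 in normal lung and 12.97 in tumor, and the summed signal of the list was 4247 to 4954 in normal lung and 7092 to 8722 in tumor. Of 8 type 2 alveolar genes, all well above background in both groups, 7 were tested and 0 passed, with a median of 0.38 and 1081890 to 1162860 summed signal in normal lung and 1386870 to 1504850 in tumor. Of 5 macrophage genes tested, Clec4f alone fell, by 1.19 (limma adjusted p = 0.000285), a gene that is known for Kupffer cells of the liver but read 16825 and 15954 in blood against 64.2 to 74.5 in normal lung. Its call was lost with the 75th percentile shift, with normexp and with near-identical arrays counted once. The summed macrophage signal was 113115 to 120125 in normal lung and 136680 to 173017 in tumor. In the list of gut and stomach genes 5 were tested, of which Lgals4 rose by 2.69 and Fabp1, which liver also makes, fell by 2.45 on the log2 scale. Lgals4 was well above background on only 1 of 3 normal arrays, so its difference is not exact. It was not tested under the filter on all 6 lung arrays. Prss2 rose among 2 tested pancreas genes, at least 2.03-fold from background in normal lung, a call lost with normexp and with near-identical arrays counted once, and Kl was the 1 choroid plexus gene tested and fell, with 1 of 3 tumor arrays above background. Kcne2 of the choroid plexus list, not tested because of outlier marks, had means of 13.55 and 14.89, and that list's summed signal was 12629 to 13345 in normal lung and 27841 to 30995 in tumor. Of 5 neutrophil and monocyte genes 2 were tested and neither passed. The other 3 were not tested because of outlier marks, with means of 13.52 in normal lung and 11.40 in tumor for S100a8, a tumor minus normal difference of -2.40 for Csf3r, and means of 11.03 and 12.67 for Cd14, and the summed signal of the list was 239142 to 297865 in normal lung and 319116 to 398831 in tumor, most of it from Lyz2, a lysozyme gene that macrophages also use, which was tested and did not pass (limma adjusted p = 0.0509). The tumor arrays also had more spots marked as outliers, 15.9 to 25.3% of those above background against 4.92 to 8.62% on the normal arrays, though no spot of the 8 genes was marked. The part of these markers in the differences of the 8 genes was not tested.

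The genes most like Ttr across arrays were sought over the 8 arrays normalized together, among 8943 candidate mRNA probes. The 5 with the highest Pearson r were Arc (0.9974), an activity-regulated cytoskeletal gene of neurons, Sncaip (0.9946), Hoxb7 (0.9937), Mlc1 (0.9931) and Tspan9 (0.993). Over the same arrays Ttr was at 10.58 to 10.67 in normal lung, 5.42 to 5.92 in tumor, and 6.56 and 2.61 in control and NNK blood. Arc had levels of 4.84 to 5.04 in normal lung, 2.72 to 3.17 in tumor, and 3.27 and 1.54 in control and NNK blood, the last being the lowest signal of that array. The arrays fall into tissue clusters, so these values describe the steps between normal lung, tumor and blood, and no test was made.

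In blood, with 1 array per group, values are given with no test, and the treatment and the individual rat cannot be told apart. The 75th percentile of the signal was 95.36 on the control array and 205.8 on the NNK array. Of the 8 genes, Serpina1 and Alb were well above background on both blood arrays, Ttr on the control array and Apob on the NNK array, and Ahsg, Apoa2, Rbp4 and C8a on neither. The red cell marker genes fitted the label, with a summed signal of 847824 and 818883 against at most 42242 in lung. The summed platelet signal was also higher on both blood arrays than on any lung array. The summed neutrophil and monocyte signal, most of it from Lyz2 in lung, was lower on both blood arrays than on any lung array. These sums are of processed signals that were not normalized between arrays. The 75th percentile was 1191 to 1329 on the lung arrays, so a lower sum in blood cannot be read as less of this RNA. The same limit holds for the sums of the 2 blood arrays set side by side. Between the control and NNK blood arrays the summed neutrophil and monocyte signal was 58113 and 153767 and the summed platelet signal 132521 and 77074, and their part in the blood differences below was not tested.

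Serpina1 was bright in blood, with processed signals of 6473 on the control array and 6103 on the NNK array. Neutrophils and monocytes are known to make alpha-1-antitrypsin besides the liver. With the 8 arrays normalized together its level was 14.87 and 14.71 in control and NNK blood, 11.06, 11 and 11.14 on the normal lung arrays and 8.77 to 8.95 in tumor, so that for this gene both blood arrays lay above all lung arrays. Rbp4 had the opposite order, with 11.47 to 11.61 in normal lung, 9.84 to 10.04 in tumor and no signal well above background in blood.

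Between the blood arrays, normalized to each other, 4 of the 8 genes could be compared, of which 2 were at least 2-fold lower in NNK blood and 0 were at least 2-fold higher, against 19.1% lower and 23.1% higher of 14452 probes. Alb was at 7.88 in control and 5.99 in NNK blood, 3.69-fold lower, from signals of 166 and 98.6. The difference of -1.88 became -3.23 with all 8 arrays normalized together, -3.09 with the authors' values and -1.26 with normexp. Ttr was at 5.49 in control blood and was at least 2.38-fold lower in NNK blood, where its signal of 8.94 was background. The bound does not hold with normexp, where the difference was -0.71 and under 2-fold, and the difference was -4.40 with the authors' values. Serpina1 had 12.75 and 12.48, a 1.20-fold difference, which became -1.20 on the log2 scale with the 75th percentile shift, so that 3 genes were then at least 2-fold lower. Apob was the only one of the 4 with more signal in NNK blood, 40.2 against 8.34, where the control value was background and the bound was at least 1.25-fold. The Apob bound does not hold with normexp, where the difference was 0.21. Its difference was 1.16 with the 75th percentile shift, 1.07 with all 8 arrays normalized together and 1.37 with the authors' values. Under each of these settings 1 gene was at least 2-fold higher. These low signals set the limit of what the blood arrays can show for the carriers.

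**Figure D4:**
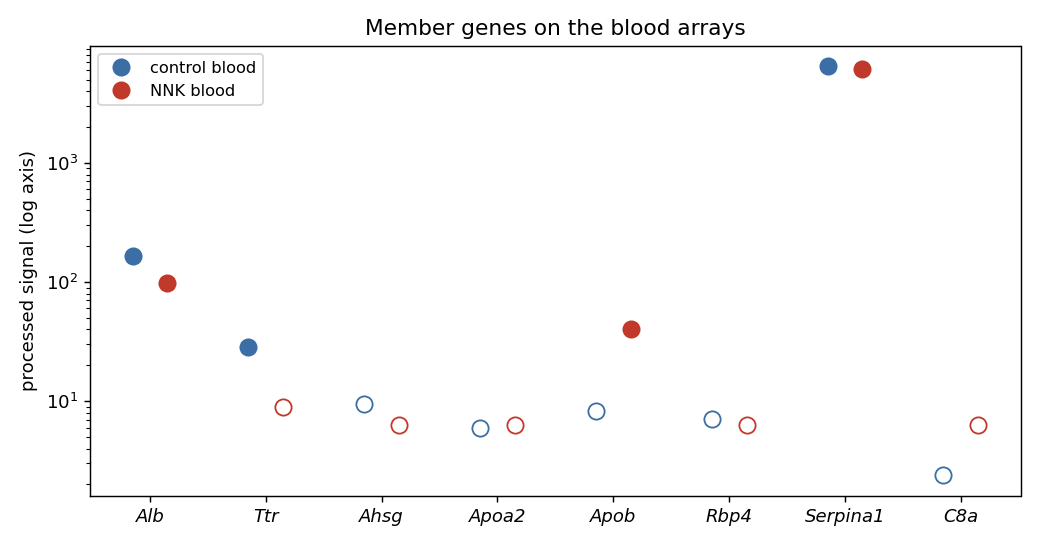
Processed signal (log axis, not normalized between arrays) of the 8 genes on the control blood array (blue) and the NNK blood array (red), with open symbols where the spot was not well above background. Serpina1 is at 6473 and 6103, Alb at 166 and 98.6, and 4 genes have open symbols on both arrays.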

How the data were processed

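Per the labels and the methods, 8 RNA samples were hybridized to the Arraystar rat lncRNA array. The authors deposited the intensity of every spot from Agilent Feature Extraction 10.5.1.1 (the processed signal is background-subtracted) and their own log2 values, quantile-normalized in GeneSpring over the 8 arrays, with medians of 5.60 to 5.61, an r of 0.982 to 0.998 with the log2 processed signal and 22 probes absent. Any floor set before their log is not given in the sources used here.

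With R 4.3.3 and limma 3.58.1, log2 processed signals were brought to common quantiles, separately for the 6 lung and the 2 blood arrays, outlier-marked spots were left out and spots of a probe averaged. Lung probes well above background on at least 3 of 6 arrays were tested with lmFit and eBayes, group as the only term (12471 tested, 8881 below background, 3332 lost to marks). Steps were checked on simulated data. The files name 14274 mRNA probes (93.2%) through RefSeq transcripts of GRCr8, whose gene coordinates were not used except for the promoter windows. The array's files carry the build rn4.

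The genes and lists were chosen with earlier results of these data known. Named were the 9 genes, the 4 largest rises and 2 largest falls called in each further list, Afp, Cps1, Hnf4a, Mttp and Stra6, and the 5 genes most like Ttr. A few genes that this rule names are not reported here. Hrg, Serpinc1, Gc, Cyp2e1 and marker genes named without a call (Pf4, Kcne2, Tat, Hpd, S100a8, Csf3r, Cd14 and Lyz2) were chosen after their values were seen. The same holds for Gp9, C6, Foxa2 and Cebpb. The study's text calls the normal lung tissues matched to the tumors, and the sample titles give both groups the same replicate numbers. Samples of the same number were taken as pairs. Deviations of same-numbered arrays from their group means correlated at 0.143, -0.0406 and 0.16, and those of different-numbered arrays at -0.189 to 0.14. Alternatives changed the normalization, background correction, filters, marked spots, test, blocks and arrays.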

Additional observations from a re-analysis of the deposited data

How the results depend on the processing

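None of the lung differences of the 8 genes changed sign under the 19 lung alternatives, of which 18 held Apoa2, Apob and C8a. In blood the differences of Alb, Ttr, Apob and Serpina1 kept their sign under those of the 8 alternatives that held them. The count of the 8 genes past the lower threshold, which the choice of genes fixes and which shows no stability, was 8 except with the methods' t-test in its paired form (7, Alb not called), normexp background correction (6, Apoa2 and C8a not called), near-identical arrays counted once (6, Alb and Apob not called, with 1 residual degree of freedom) and a filter on all 6 lung arrays, which removes Apoa2, Apob and C8a (5). Differences ranged from -4.64 to -2.80 for Alb, -5.91 to -4.49 for Ttr, -4.24 to -2.94 for Ahsg, -1.88 to -1.56 for Rbp4 and -2.59 to -2.23 for Serpina1, while Apoa2 (-3.63 to -0.57), Apob (-5.27 to -1.31) and C8a (-4.67 to -0.97), at background in tumor, depended most on the background correction. With the replicate block in limma, where samples of the same number were taken as pairs, 8 of the 8 genes, 15 other liver-secreted and 17 hepatocyte genes were called lower, 1614 probes higher and 1945 lower, and no count moved by over 1.5 times.

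With normexp 968 probes were called higher and 1256 lower, with 1 transport partner gene higher and 2 lower. With the filter on all 6 arrays 9 other liver-secreted and 10 hepatocyte genes were lower and 1 transport partner gene higher. Transport partner genes called higher numbered 4 with the authors' values and with marked spots kept, 1 with the methods' t-test, 0 in its paired form (1090 probes higher) and 0 with the slide as a block (3 lower). With near-identical arrays counted once 778 probes were higher and 976 lower, with 1 transport partner gene in each direction. Leaving out 1 array gave 1 to 2 transport partner genes higher, with 1 without each of the normal arrays, and 8 of the 8 genes lower each time. In blood, genes at least 2-fold higher numbered 1 with the 75th percentile shift, with all 8 arrays normalized together and with the authors' values, where Apob passed 2-fold, and genes at least 2-fold lower numbered 3 with the 75th percentile shift, 1 with normexp and with both arrays above background (Ttr not among them in either), and 5 with no filter. The causes of these moves were not tested, apart from the genes that a stricter filter removes. Signal over background limits Apoa2, Apob and C8a in tumor and most of the 8 genes in blood.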
